A study of Homo sapiens with 6 samples.

Results

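Human dermal fibroblasts with the VP64-MyoD fusion were compared with untreated fibroblasts, in 4 of the 6 RNA libraries of the study. The members are 2 libraries of cells with VP64-MyoD and 2 libraries of untreated cells, chosen by their labels, with every gene compared. All cells were primary dermal fibroblasts of 1 line. The treated cells carried a lentivirus with a Tet-ON promoter, which drove mouse MyoD whose N-terminus was fused to VP64, followed by a T2A peptide and the red fluorescent protein dsRed-Express2. They were selected with puromycin at 1 µg/mL, grown to confluence and given doxycycline at 3 µg/mL until harvest on day 10. For the untreated cells the labels name no vector, selection, doxycycline or harvest day, so the effect of any of these cannot be told apart from that of VP64-MyoD. The remaining 2 libraries, of cells with wild-type MyoD (WT-MyoD) in the same vector, steadied the estimate of spread and appear in 1 contrast at the end. The libraries are labelled as replicates of 1 line, so a p-value measures only the spread between its cultures.

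MyoD is a basic helix-loop-helix transcription factor that binds E-box motifs in DNA together with E proteins. It switches on further muscle regulators such as myogenin and the MEF2 factors, which in turn activate the genes of the contractile apparatus, and it is known for its ability to turn fibroblasts into muscle-like cells. VP64 is a synthetic chain of viral activation motifs that recruits the transcription machinery. In normal muscle formation, cells leave the cell cycle, express myogenin, fuse into multinucleate myotubes and assemble sarcomeres, the repeating units of thick and thin filaments between Z-discs.

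The untreated libraries held 53804224 and 48142658 counts and the VP64-MyoD libraries 44995262 and 49384350. The mouse Myod1 transgene had 254 and 46 counts in untreated cells and 5372 and 5056 with VP64-MyoD and did not overlap between the groups. The 10 fibroblast markers were detected in every library. Their summed level was 43716 and 46128 CPM (counts per 1000000 of a library size adjusted by edgeR's TMM scaling) in untreated cells and 33986 and 31399.5 CPM with VP64-MyoD. Of these markers 7 fell, among them DCN and PDGFRB, 2 rose (VIM and LUM) and THY1 was not called. The summed markers of melanocytes, endothelial cells, adipocytes and Schwann cells stayed at or under 1.775 CPM in each of the 4 libraries. The keratinocyte sum of 5.69 and 5.9 CPM, then 8.36 and 8.65 CPM, was mostly KRT10, and the blood cell sum of 68.5 and 69.8 CPM, then 45.1 and 47 CPM, was mostly CD68, a lysosomal protein. Of the satellite cell markers, PAX7 and MYF5 had no count in these libraries, and PAX3 fell from 5.77 and 5.26 CPM to 4.59 and 3.11 CPM. Its log2 fold change was -0.53, or -0.83 to -0.27 with 1 library left out, and its call was lost without untreated replicate 1 or VP64-MyoD replicate 2. In bulk RNA, fewer cells of a type and less RNA per cell cannot be told apart, and this holds for every level below.

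Of 15282 genes tested with edgeR's quasi-likelihood test, 5090 were higher with VP64-MyoD than in untreated cells (33.3%) and 4633 were lower (30.3%) at an adjusted p under 0.05. These shares are the background for every count of a gene list or family below. Most of these differences were small: 3128 of the higher and 3563 of the lower genes differed by under 2-fold. Over 4-fold, the balance was uneven, with 1199 genes higher (7.85%) and 288 lower (1.88%), and over 16-fold 642 were higher and 43 lower. The median log2 fold change over all tested genes was 0.03. Of the genes called higher, 238 had no count in either untreated library, and 22 of those stood above 10 CPM with VP64-MyoD. Among all called genes only ACBD7, RN7SK and RNA18SN5 had libraries that overlapped between the groups. So for every other gene said to have risen or fallen, both VP64-MyoD libraries lay on the same side of both untreated ones.

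FN1 and COL1A1, matrix genes of fibroblasts, had the most counts in both groups. FN1, fibronectin of the matrix, held 5.61% and 6.09% of scaled counts in the untreated libraries and 3.81% and 3.49% with VP64-MyoD. Here and below, shares of scaled counts are CPM written in percent, and not shares of the raw library total. COL1A1, a chain of type I collagen, took 1.84% and 1.97%, then 1.51% and 1.36%. Both fell. COL6A3, a chain of type VI collagen, came next with VP64-MyoD, at 0.992% and 0.970% against 0.920% and 0.916%, and was not called (edgeR adjusted p = 0.345). COL12A1, a fibril-associated collagen, fell from 1.19% and 1.29% to 0.335% and 0.323%.

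The 20 genes with the highest fitted fold changes included parts of the muscle calcium channel, the sarcomere and the neuromuscular junction beside genes with no known place in muscle. CACNG1, the gamma subunit of the muscle calcium channel, had no count in untreated cells and stood at 56.8 and 54.3 CPM with VP64-MyoD, at least 863-fold higher. Here and below, a fold against untreated libraries without a count is a lower bound, set against 3 fragments (6 counts) over the group. KLHL31, a kelch protein of muscle, likewise went from no count to 56 and 50.9 CPM, at least 831-fold higher. CHRND, the delta subunit of the acetylcholine receptor, had 1 fragment in untreated cells and stood at 262 and 226 CPM with VP64-MyoD. Its ratio of 11313 (95% exact counting interval 2030.1 to 446876) has a wide counting interval because of that single fragment. Among genes outside the muscle programme, CELA3A, a pancreatic elastase, reached 17.8 and 14.1 CPM, RGR, an opsin of the retina, 12.8 and 11.9 CPM, and TDRD1, a tudor protein of germ cells, 14.2 and 12.9 CPM, each from no count. CXCR4, the receptor of the chemokine CXCL12, rose from no count to 14.7 and 14.7 CPM, at least 229-fold higher. STYXL2, a muscle pseudophosphatase, and RBFOX1, a splicing regulator, stood at 38.5 and 34.7 CPM and 33.7 and 34.2 CPM, again from no count.

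The promoters of 5 of these 20 genes are shown because they hold the E-box forms that MyoD is known to prefer. Of the 20 genes, 16 had a window in the RefSeq promoter table (build GRCh38.p14), 9 had exactly 1 window, and 5 of those held CAGCTG or else the form CAGGTG in the 250 bases before the annotated start. They were picked for these motifs, so their presence is no finding. Capitals mark the E-box CAGCTG, the E-box CAGGTG, whose other strand appears here as CACCTG, and a MEF2-type motif, which is CTA followed by any 4 bases and then by TAG. The first and the last read the same on both strands. Each sequence runs 5′ to 3′ on the gene's strand and ends just before the start, and all 5 genes lie on the plus strand.
STYXL2, chr1:167093825-167094074: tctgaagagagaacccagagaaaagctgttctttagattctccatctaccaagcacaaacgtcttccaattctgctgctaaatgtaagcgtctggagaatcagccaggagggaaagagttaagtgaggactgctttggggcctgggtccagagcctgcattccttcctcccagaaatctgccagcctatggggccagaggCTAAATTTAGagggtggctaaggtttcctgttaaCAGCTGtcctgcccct
C1orf105, chr1:172452643-172452892: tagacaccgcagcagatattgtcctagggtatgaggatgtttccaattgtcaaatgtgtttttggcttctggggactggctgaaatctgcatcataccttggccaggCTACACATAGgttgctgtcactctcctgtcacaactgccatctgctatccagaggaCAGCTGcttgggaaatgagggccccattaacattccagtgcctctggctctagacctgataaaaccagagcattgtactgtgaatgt
CHRND, chr2:232525910-232526159: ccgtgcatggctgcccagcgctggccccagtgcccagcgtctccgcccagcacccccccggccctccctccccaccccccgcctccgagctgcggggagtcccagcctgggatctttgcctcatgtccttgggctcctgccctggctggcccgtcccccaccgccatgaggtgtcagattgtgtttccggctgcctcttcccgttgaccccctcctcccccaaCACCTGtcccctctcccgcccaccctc
FITM1, chr14:24130409-24130658: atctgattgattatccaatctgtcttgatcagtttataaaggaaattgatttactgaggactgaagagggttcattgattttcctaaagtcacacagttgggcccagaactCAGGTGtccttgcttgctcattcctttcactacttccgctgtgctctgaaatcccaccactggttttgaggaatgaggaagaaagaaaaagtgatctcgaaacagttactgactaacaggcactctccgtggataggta
CELA3A, chr1:22001407-22001656: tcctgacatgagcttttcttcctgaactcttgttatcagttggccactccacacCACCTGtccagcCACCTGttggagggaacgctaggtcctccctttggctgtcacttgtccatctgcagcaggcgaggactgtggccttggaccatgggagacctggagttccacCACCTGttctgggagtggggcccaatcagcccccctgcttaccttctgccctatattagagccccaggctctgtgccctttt
STYXL2 and C1orf105 each held 1 CAGCTG and 1 MEF2-type match. CHRND and FITM1 each held 1 CAGGTG or its complement, and CELA3A held 3. FITM1, which helps muscle cells form lipid droplets, stood at 26.6 and 22.1 CPM and C1orf105 at 28.2 and 25.4 CPM with VP64-MyoD, both from no count.

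Across the tested genes, 12015 had a promoter window and 8619 had exactly 1, which were searched over the same 250 bases. CAGCTG was present in 22.0% of 626 promoters of genes called over 4-fold higher, in 11.5% of 148 promoters of genes called over 4-fold lower and in 13.6% of all 8619. For CAGGTG the shares were 24.4%, 13.5% and 15.8%. The general E-box CANNTG, of which both are forms, was found in 66.9%, 46.6% and 54.2%, and the MEF2-type motif in 4.95%, 1.35% and 1.86%. All searches covered both strands. Genes over 4-fold higher thus had the largest share for each of the 4 motifs and genes over 4-fold lower the smallest. For the MEF2-type motif that smallest share rests on only 2 of 148 promoters, too few to rank it below the share of all genes. A match is a description of these letters and does not show that a factor binds there.

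**Figure D1:**
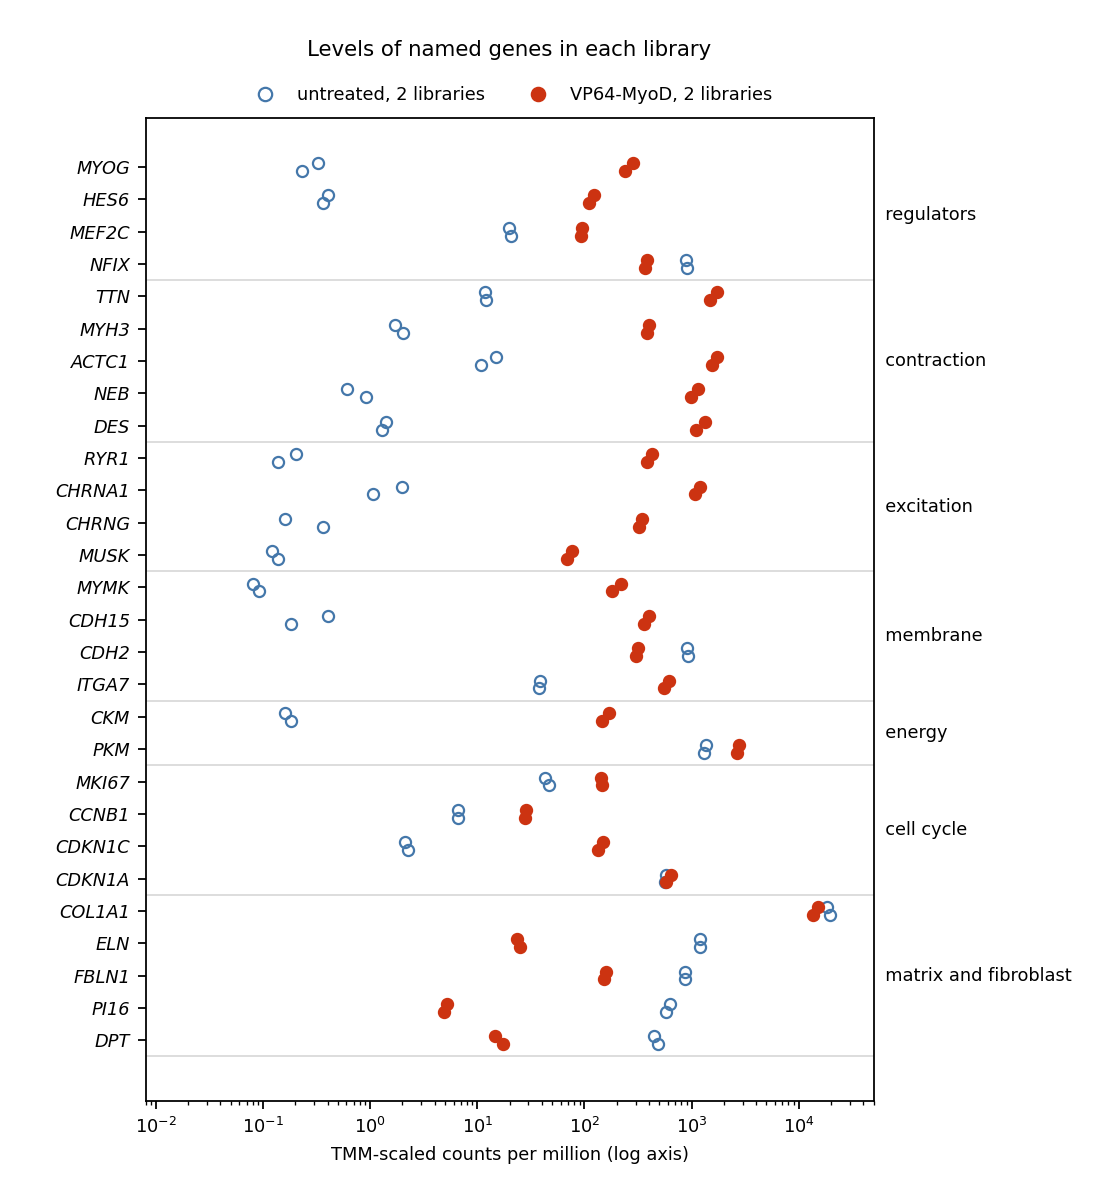
Levels of 28 named genes in each of the 4 libraries, in CPM on a log axis, grouped by cell function. Open circles are the 2 untreated libraries and filled circles the 2 VP64-MyoD libraries. Contractile, excitation and fusion genes lie far to the right with VP64-MyoD, while NFIX and CDH2 lie to the left. Of the cell cycle genes, MKI67 and CCNB1 lie moderately to the right, CDKN1C lies far to the right and CDKN1A hardly moves. Matrix genes such as ELN and PI16 lie to the left of their untreated values.

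Regulators of the muscle lineage formed an uneven set. For myogenic transcription regulators, 44 of 48 listed genes were tested, 24 rose, 16 fell and the median log2 fold change was 0.39. The shares over all tested genes were 33.3% higher and 30.3% lower. A gene that untreated cells do not express could pass the filter only through libraries with VP64-MyoD or WT-MyoD. Such counts therefore describe the tested members and not the whole list. MYOG, the gene of myogenin, stood at 0.323 and 0.229 CPM in untreated cells and 283 and 241 CPM with VP64-MyoD (log2 fold change 9.86 with an SE of 0.15, adjusted p = 4.5e-17 by edgeR). HES6, a helix-loop-helix factor that promotes differentiation, stood at 0.404 and 0.366 CPM in untreated cells and 122 and 111 CPM with VP64-MyoD (log2 fold change 8.23 with an SE of 0.13). SMYD1, a muscle methyltransferase needed for sarcomere assembly, stood at 0.0404 and 0.183 CPM in untreated cells and 220.1 and 196 CPM with VP64-MyoD (log2 fold change 10.89 with an SE of 0.17). All 3 were near the limit of detection in untreated cells and abundant in both VP64-MyoD libraries. Factors that fibroblasts already express moved less: MEF2C, a partner of MyoD, rose from 19.7 and 20.5 CPM to 95.4 and 92.9 CPM (log2 fold change 2.23 with an SE of 0.07). The human MYOD1 gene stood at 6.45 and 7.5 CPM, from no count, and reads of the mouse transgene, which is close to it in sequence, cannot be told apart from its own. ID2 and ID4, which inhibit helix-loop-helix dimers, fell, with log2 fold changes of -0.83 and -1.12. NFIX, a factor of fetal muscle that fibroblasts express strongly, fell from 884 and 902 CPM to 386 and 365 CPM (log2 fold change -1.25 with an SE of 0.08). VGLL2, a TEAD cofactor of muscle, and LBX1, a factor of migrating muscle precursors, rose from no count to 5.76 and 5.42 CPM and 1.21 and 0.731 CPM.

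Fibroblast and mesenchymal transcription factors moved more often downward than upward. 37 of 41 listed genes were tested, 10 rose, 20 fell and the median log2 fold change was -0.31. The shares over all tested genes were 33.3% higher and 30.3% lower. LHX9, a LIM homeodomain factor, fell from 38.4 and 42.7 CPM to 4.42 and 4.69 CPM (log2 fold change -3.15 with an SE of 0.10). MKX, a homeobox factor of tendon, fell from 83.4 and 87.5 CPM to 10.1 and 13.5 CPM (log2 fold change -2.85 with an SE of 0.11). TWIST2, a dermal helix-loop-helix factor that restrains MyoD, fell from 53.6 and 49.3 CPM to 13.7 and 12.5 CPM (log2 fold change -1.98 with an SE of 0.10). In each of these 3 genes the 2 groups were separated by more than the spread within either. The mesenchymal factors SNAI2 and ZEB2 went the other way, with log2 fold changes of 1.02 and 0.71. KLF4, a zinc finger factor, fell by 2.25 on the log2 scale.

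Chromatin modifiers were called in both directions. 45 of 46 listed genes were tested, 19 rose, 17 fell and the median log2 fold change was 0.10, and none moved over 4-fold. Over all tested genes, 33.3% were higher and 30.3% lower. UHRF1, which maintains DNA methylation through replication, rose most (log2 fold change 1.75 with an SE of 0.10), followed by SMARCD3, the SWI/SNF subunit that works with MyoD (log2 fold change 1.49 with an SE of 0.08), and by HMGA2 (log2 fold change 1.30 with an SE of 0.09). The members that fell most were SMARCA2, a SWI/SNF ATPase (log2 fold change -0.98 with an SE of 0.07), the deacetylases HDAC10, HDAC7 and HDAC5 (-0.97, -0.94 and -0.92), and CBX7, a Polycomb reader (-0.95).

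Splicing and RNA-binding genes were called higher more often than lower. Of 31 tested splicing and RNA-binding genes, 16 rose and 6 fell, against 33.3% higher and 30.3% lower over all genes. RBFOX1 went from no count to 33.7 and 34.2 CPM, at least 528-fold higher. RBM20, a regulator of titin splicing, rested on 1 fragment in untreated cells and stood at 15 and 12.1 CPM with VP64-MyoD. RBM24, which promotes muscle exons, stood at 4.08 and 4.85 CPM in untreated cells and 108 and 103 CPM with VP64-MyoD (log2 fold change 4.56 with an SE of 0.09, adjusted p = 7.9e-16 by edgeR). CELF2 stood at 16.4 and 17.4 CPM in untreated cells and 147 and 145 CPM with VP64-MyoD (log2 fold change 3.11 with an SE of 0.08). In contrast MBNL1 and MBNL2, the muscleblind factors, fell with log2 fold changes of -0.63 and -0.62. Splicing itself was not measured here, since transcript rows were summed per gene.

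Among long noncoding RNAs, H19, an imprinted RNA of fetal tissues and muscle, stood at 2.7 and 2.88 CPM in untreated cells and 1304 and 1146 CPM with VP64-MyoD (log2 fold change 8.78 with an SE of 0.13, adjusted p = 3.6e-17 by edgeR). MEG3, another imprinted RNA, stood at 20.3 and 26.4 CPM in untreated cells and 219 and 199.98 CPM with VP64-MyoD (log2 fold change 3.17 with an SE of 0.10). MIR31HG fell from 40.1 and 36.7 CPM to 15.6 and 15.6 CPM. NEAT1, the RNA scaffold of paraspeckles, fell by 0.59 on the log2 scale, while MALAT1, with the most counts of this list, was not called (649 and 755 CPM in untreated cells and 837 and 842 CPM with VP64-MyoD).

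Among the 46 gene lists, those of the thin and thick filaments had the largest median log2 fold changes. For thick filament and M-band genes, 24 of 30 listed genes were tested, 21 rose, 0 fell and the median log2 fold change was 6.74 (5.25 with genes at 0 counts in untreated cells set at their bound). For thin filament genes, 19 of 22 listed genes were tested, 16 rose, 2 fell and the median log2 fold change was 8.75 (7.67 with genes at 0 counts in untreated cells set at their bound). Together the thick filament genes took 0.0125% and 0.0125% of scaled counts in untreated cells and 0.361% and 0.321% with VP64-MyoD, and the thin filament genes 0.173% and 0.172% and 0.803% and 0.743%. Both sums were higher in each VP64-MyoD library than in either untreated one. TTN, the gene of titin, stood at 11.8 and 12.1 CPM in untreated cells and 1728 and 1492 CPM with VP64-MyoD (log2 fold change 7.08 with an SE of 0.21, adjusted p = 1.2e-13 by edgeR). MYH3, the embryonic myosin heavy chain, stood at 1.7 and 2.01 CPM in untreated cells and 402 and 383 CPM with VP64-MyoD (log2 fold change 7.73 with an SE of 0.11), and MYH8, the perinatal form, had 3 fragments in untreated cells and stood at 181 and 155 CPM. The adult fast form MYH2 reached 59.7 and 53.6 CPM and MYH7, the slow form, 1.3 and 1.08 CPM from no count. The embryonic and perinatal forms thus held more counts than the adult fast and slow forms, which is no comparison per length, and these genes are close in sequence, so their counts are uncertain.

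Thin filament genes known from slow, fast and cardiac muscle were among those that rose. NEB, nebulin, stood at 0.606 and 0.915 CPM in untreated cells and 1146 and 991 CPM with VP64-MyoD (log2 fold change 10.47 with an SE of 0.18, adjusted p = 2e-16 by edgeR). ACTC1, the cardiac actin of fetal skeletal muscle, stood at 14.9 and 10.8 CPM in untreated cells and 1711 and 1546 CPM with VP64-MyoD (log2 fold change 6.98 with an SE of 0.13), and ACTA1, the adult skeletal actin, at 0.323 and 0.229 CPM in untreated cells and 240.5 and 207 CPM with VP64-MyoD (log2 fold change 9.63 with an SE of 0.15). The slow troponins TNNT1 and TNNI1 reached 385 and 362 CPM and 405 and 351 CPM. The cardiac troponin T gene TNNT2 reached 548 and 524 CPM and the fast gene TNNT3 112 and 113 CPM, the last from 1 fragment. TPM1, a tropomyosin that fibroblasts express, moved by a log2 fold change of only 0.32. LMOD1, the smooth muscle leiomodin, fell from 71 and 76.7 CPM to 22.9 and 22 CPM, while the muscle form LMOD3 stood at 106 and 99.7 CPM against 0.242 and 0.229 CPM.

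Z-disc and assembly genes were also mostly higher. 36 of 39 listed genes were tested, 26 rose, 5 fell and the median log2 fold change was 2.47. DES, the muscle intermediate filament, stood at 1.41 and 1.28 CPM in untreated cells and 1328 and 1110.0 CPM with VP64-MyoD (log2 fold change 9.82 with an SE of 0.13, adjusted p = 3.5e-17 by edgeR). KLHL41, a stabiliser of nebulin, stood at 0.807 and 0.549 CPM in untreated cells and 981 and 893 CPM with VP64-MyoD (log2 fold change 10.41 with an SE of 0.15). UNC45B, the chaperone of muscle myosin, reached 249.9 and 215 CPM and ACTN2, the Z-disc crosslinker, 318 and 277 CPM. None of these 4 had an untreated library above 2 CPM. Small heat shock proteins did not move as one: HSPB3 and HSPB8 rose (3.36 and 3.12 on the log2 scale), whereas HSPB6 and HSPB7 fell (-1.24 and -1.35). TCAP, MYOT and ACTN3, which mature muscle expresses, did not pass the filter.

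The smooth muscle and myofibroblast list did not move as one. All 23 listed genes were tested, 7 rose, 11 fell and the median log2 fold change was -0.14. Over all tested genes, 33.3% were higher and 30.3% lower. CNN1, a smooth muscle calponin, fell from 29.5 and 29.9 CPM to 5.41 and 5.61 CPM (log2 fold change -2.43 with an SE of 0.12). MYH10, a nonmuscle myosin, fell from 562 and 590.2 CPM to 129 and 136 CPM (log2 fold change -2.12 with an SE of 0.07), and MYLK, the smooth muscle light chain kinase, fell by 1.82 on the log2 scale. ACTA2, the smooth muscle actin of myofibroblasts, differed little, at 541 and 576 CPM in untreated cells and 663 and 647 CPM with VP64-MyoD (log2 fold change 0.23 with an SE of 0.07), and was no longer called without untreated replicate 1 or VP64-MyoD replicate 1 (log2 fold change 0.18 and 0.21). SMTN and PALLD rose (1.78 and 1.62).

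Excitation-contraction coupling links the voltage sensor of the membrane with the calcium release channel of the sarcoplasmic reticulum. For triad and calcium handling genes, 32 of 33 listed genes were tested, 25 rose, 5 fell and the median log2 fold change was 3.27. RYR1, the release channel, stood at 0.202 and 0.137 CPM in untreated cells and 429 and 384 CPM with VP64-MyoD (log2 fold change 11.19 with an SE of 0.20, adjusted p = 2.6e-16 by edgeR). STAC3, an adaptor of the channel complex, stood at 0.363 and 0.503 CPM in untreated cells and 198 and 168 CPM with VP64-MyoD (log2 fold change 8.73 with an SE of 0.14). CACNA1S, the voltage sensor, had 1 fragment in untreated cells and reached 23.6 and 22.5 CPM. ATP2A1, the calcium pump of fast muscle, stood at 0.202 and 0.183 CPM in untreated cells and 97.9 and 79.7 CPM with VP64-MyoD (log2 fold change 8.83 with an SE of 0.17), and CASQ2, a calcium store of the reticulum, at 27.9 and 28.4 CPM from no count. TMEM38B, a counter-ion channel, rose from 9.2 and 8.87 CPM to 84.9 and 72.7 CPM. The widely expressed pump ATP2A2 moved little (log2 fold change 0.17 with an SE of 0.06), and its call was lost when any of the 4 libraries was left out (log2 fold change 0.13 to 0.20). PLN, phospholamban of heart and slow muscle, fell from 1.29 and 1.14 CPM to 0.0866 and 0.115 CPM, and STAC, a relative of STAC3, from 51.8 and 46.9 CPM to 5.89 and 6 CPM (log2 fold change -3.05 with an SE of 0.10).

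At the neuromuscular junction, the subunits of the fetal receptor rose and the adult subunit was not called. 19 of 20 listed genes were tested, 13 rose, 5 fell and the median log2 fold change was 3.02. CHRNA1, the alpha subunit, stood at 1.98 and 1.05 CPM in untreated cells and 1201 and 1070.1 CPM with VP64-MyoD (log2 fold change 9.53 with an SE of 0.16, adjusted p = 1.6e-16 by edgeR). CHRNG, the gamma subunit of the fetal receptor, stood at 0.161 and 0.366 CPM in untreated cells and 344 and 322 CPM with VP64-MyoD (log2 fold change 10.32 with an SE of 0.14). CHRNE, its adult replacement, was not called and stood at 1.33 and 0.869 CPM in untreated cells and 0.823 and 0.769 CPM with VP64-MyoD. MUSK, the kinase that organises the junction, stood at 0.121 and 0.137 CPM in untreated cells and 76.7 and 68 CPM with VP64-MyoD (log2 fold change 9.11 with an SE of 0.19), and its adaptor DOK7 at 12.9 and 11.5 CPM from no count. CHRNA1, CHRNG and MUSK were low in both untreated libraries and far higher in each VP64-MyoD library. The nerve-side signals moved differently, with AGRN barely lower (log2 fold change -0.17 with an SE of 0.07) and NRG1 down from 99.1 and 106 CPM to 29.6 and 28.6 CPM (log2 fold change -1.82 with an SE of 0.07). The call of AGRN was lost when any of the 4 libraries was left out (log2 fold change -0.20 to -0.14).

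Among channels and pumps of the excitable membrane, 16 of 29 tested genes rose and 10 fell, against 33.3% higher and 30.3% lower over all genes. SCN4A, the sodium channel of adult muscle, stood at 0.0807 and 0.183 CPM in untreated cells and 31.7 and 30.3 CPM with VP64-MyoD (log2 fold change 7.88 with an SE of 0.18). KCNJ12, an inward rectifier with a near-identical copy in KCNJ18, stood at 0.161 and 0.229 CPM in untreated cells and 23.1 and 21.4 CPM with VP64-MyoD and is uncertain for that reason. KCNN3, a calcium-gated potassium channel, stood at 1.05 and 0.686 CPM in untreated cells and 53.7 and 50.5 CPM with VP64-MyoD (log2 fold change 5.89 with an SE of 0.14). CACNA1C, the calcium channel of smooth muscle and heart, fell from 107 and 108 CPM to 25 and 25.1 CPM.

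**Figure D2:**
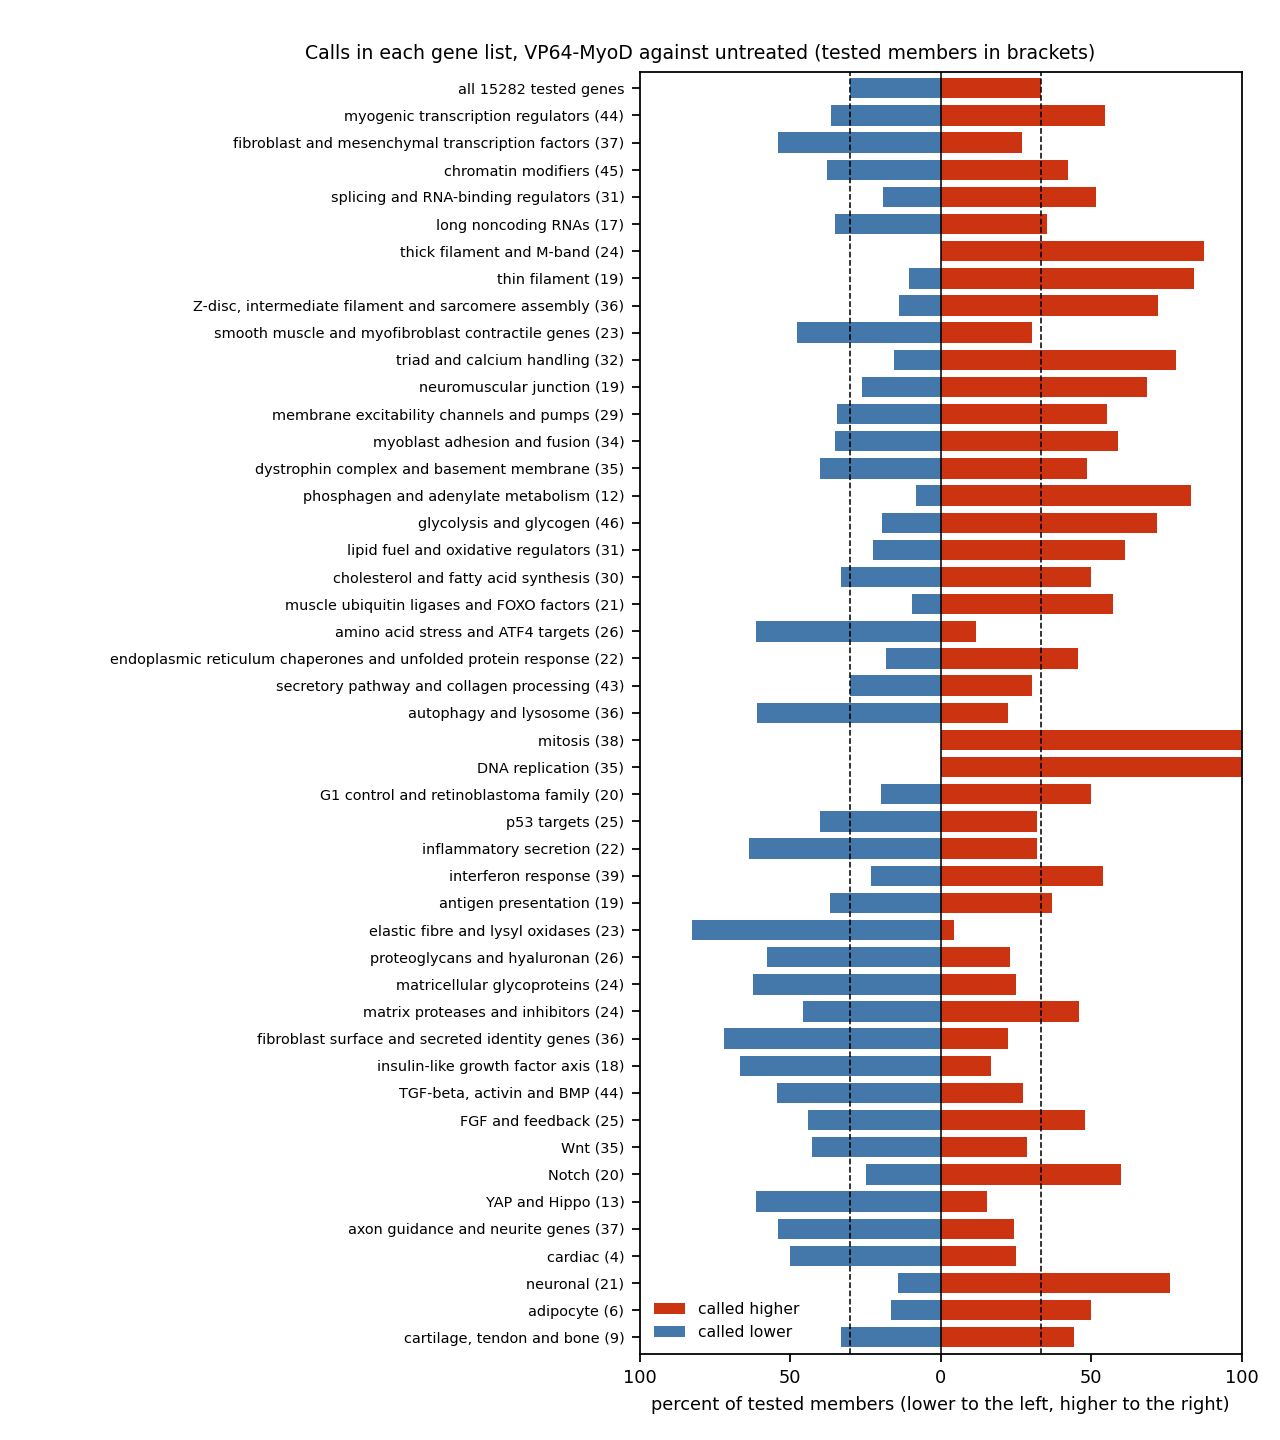
Share of tested members called higher (right bars) and lower (left bars) in 46 gene lists, in percent, ordered by function. The top bar gives all 15282 tested genes, with 33.3% higher and 30.3% lower, and the dashed lines repeat those shares. All tested mitosis and DNA replication genes were called higher, and 19 of 23 elastic fibre genes were called lower.

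Adhesion and fusion genes rose in most cases, while mesenchymal cadherins fell. For myoblast adhesion and fusion, 34 of 37 listed genes were tested, 20 rose, 12 fell and the median log2 fold change was 1.10. The shares over all tested genes were 33.3% higher and 30.3% lower. MYMK, the membrane protein that drives myoblast fusion, stood at 0.0807 and 0.0915 CPM in untreated cells and 221 and 182 CPM with VP64-MyoD (log2 fold change 11.15 with an SE of 0.19, adjusted p = 1.5e-16 by edgeR). CDH15, M-cadherin of myoblasts, stood at 0.404 and 0.183 CPM in untreated cells and 398 and 361 CPM with VP64-MyoD (log2 fold change 10.29 with an SE of 0.14), and NCAM1, a neural and muscle adhesion molecule, at 9.65 and 8.78 CPM in untreated cells and 376 and 356 CPM with VP64-MyoD (log2 fold change 5.31 with an SE of 0.08). ITGA7, the laminin receptor of muscle, rose from 38.8 and 37.7 CPM to 614 and 558 CPM (log2 fold change 3.94 with an SE of 0.08). Against these, CDH2 fell from 914 and 927 CPM to 314 and 303 CPM (log2 fold change -1.58 with an SE of 0.07) and CDH11, the cadherin of fibroblasts, from 1234 and 1307 CPM to 545 and 552 CPM (log2 fold change -1.21 with an SE of 0.07). M-cadherin transcripts were thus higher, and N-cadherin (CDH2) transcripts lower, in both VP64-MyoD libraries. CAV3, the muscle caveolin, and DYSF, a membrane repair protein, reached 56.9 and 52.4 CPM and 200.01 and 174 CPM.

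The dystrophin complex and basement membrane were split. All 35 listed genes were tested, 17 rose, 14 fell and the median log2 fold change was 0.004. Over all tested genes, 33.3% were higher and 30.3% lower. TRIM72, which patches membrane wounds, reached 57 and 47.7 CPM from 2 fragments, and SGCA, the muscle sarcoglycan, stood at 0.363 and 0.274 CPM in untreated cells and 51.7 and 47.5 CPM with VP64-MyoD (log2 fold change 7.26 with an SE of 0.13). Sarcoglycans that fibroblasts express moved less, for example SGCB (log2 fold change 0.66 with an SE of 0.06). LAMA5 rose from 3.27 and 2.93 CPM to 82.2 and 77.1 CPM (log2 fold change 4.68 with an SE of 0.14) and LAMA2, the laminin chain of muscle, by a log2 fold change of 0.68. HSPG2, perlecan, fell from 3469 and 3158 CPM to 1191 and 1122 CPM (log2 fold change -1.52 with an SE of 0.14), and LAMB2 and NID1 fell too (-1.36 and -1.06).

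Genes of energy metabolism were called higher more often than lower. For phosphagen and adenylate metabolism, 12 of 15 listed genes were tested, 10 rose, 1 fell and the median log2 fold change was 1.17. CKM, the muscle creatine kinase, stood at 0.161 and 0.183 CPM in untreated cells and 169 and 146 CPM with VP64-MyoD (log2 fold change 9.82 with an SE of 0.19, adjusted p = 5.8e-16 by edgeR), and GATM, which makes the creatine precursor, at 0.0807 and 0.137 CPM in untreated cells and 47.6 and 37.7 CPM with VP64-MyoD (log2 fold change 8.60 with an SE of 0.22). SLC6A8, the creatine transporter, fell (log2 fold change -0.96 with an SE of 0.07). For glycolysis and glycogen, 46 of 47 listed genes were tested, 33 rose, 9 fell and the median log2 fold change was 0.59. ENO3, the muscle enolase, stood at 0.888 and 0.823 CPM in untreated cells and 29.1 and 27.8 CPM with VP64-MyoD (log2 fold change 5.05 with an SE of 0.16). PKM, with the most counts of the list, rose from 1372 and 1299 CPM to 2792 and 2636 CPM (log2 fold change 1.02 with an SE of 0.07), and GYS1, glycogen synthase of muscle, from 77.2 and 70.3 CPM to 313 and 277 CPM (log2 fold change 2.00 with an SE of 0.08). The largest decrease in this list was in PPP1R3C, a glycogen targeting subunit, with a log2 fold change of -1.23. By the symbol families, complex I had 24 of 39 tested symbols higher and 1 lower, the last a divergent transcript beside NDUFA6. ATP synthase had 15 of 17 higher and 0 lower, and cytochrome oxidase 10 of 14 higher and 0 lower. These were small differences, with median log2 fold changes of 0.42, 0.51 and 0.43, apart from the muscle subunit COX6A2, which rose from no count to 6.76 and 6.31 CPM.

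In lipid metabolism, UCP2, an uncoupling protein, stood at 0.363 and 0.457 CPM in untreated cells and 79.1 and 69.1 CPM with VP64-MyoD (log2 fold change 7.50 with an SE of 0.14) and FABP3, the fatty acid carrier of muscle and heart, at 1.33 and 1.46 CPM in untreated cells and 16.8 and 18.6 CPM with VP64-MyoD (log2 fold change 3.66 with an SE of 0.14). CPT1A, the liver form of the gate to fatty acid oxidation, and PLIN2, a lipid droplet coat, fell (-1.01 and -1.05). Genes of cholesterol and fatty acid synthesis divided, with 15 of 30 higher and 10 lower, against 33.3% higher and 30.3% lower over all genes. IDI1, an isoprenoid enzyme, rose most (log2 fold change 1.91 with an SE of 0.09) and LSS, which closes the sterol ring, fell most (log2 fold change -0.65 with an SE of 0.06). MB, myoglobin, reached only 0.433 and 0.346 CPM.

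In protein turnover, proteasome genes were more often higher and lysosomal genes more often lower. The proteasome family had 35 of 37 tested genes higher and 0 lower, with a median log2 fold change of 0.54; PSMA2 (log2 fold change 0.88 with an SE of 0.08) and PSMD12 (log2 fold change 0.83 with an SE of 0.07) rose most. The autophagy and lysosome list had 8 of 36 higher and 22 lower, with a median of -0.29. Without untreated replicate 2 or VP64-MyoD replicate 2, 4 were higher. GAA, the acid glucosidase of the lysosome, fell from 222 and 205 CPM to 82.8 and 84 CPM (log2 fold change -1.36 with an SE of 0.06, adjusted p = 4e-11 by edgeR). SQSTM1, an autophagy receptor, fell from 764 and 735 CPM to 344 and 325 CPM (log2 fold change -1.16 with an SE of 0.07), and CTSB, with the most counts of the list, from 2185 and 2163 CPM to 1445 and 1398 CPM. CTSS and CD63 rose (1.55 and 0.77). Among muscle ubiquitin ligases, TRIM63, which tags sarcomere proteins, rose from no count to 10.3 and 9.07 CPM, and its relative TRIM55 from 3 fragments to 86.1 and 79.6 CPM. FBXO32, the other ligase known from muscle wasting, was not called (125 and 120.0 CPM in untreated cells and 118 and 117 CPM with VP64-MyoD).

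Stress pathways of the cell moved mildly. Of 26 ATF4 targets, 16 fell and 3 rose; ATF5 (log2 fold change -1.38 with an SE of 0.07) and SESN2 (log2 fold change -1.22 with an SE of 0.07) fell most. Of 22 chaperone and unfolded protein response genes of the endoplasmic reticulum, 10 rose and 4 fell. Both lists stand against 33.3% higher and 30.3% lower over all genes. HSPA5, the main chaperone, rose from 528 and 562 CPM to 845 and 818 CPM (log2 fold change 0.61 with an SE of 0.07), whereas the sensor gene ERN1 fell from 33.1 and 31.4 CPM to 10.2 and 9.27 CPM (log2 fold change -1.73 with an SE of 0.11). In collagen processing, P4HA2, a prolyl hydroxylase, rose (log2 fold change 1.43 with an SE of 0.07), as did the procollagen protease ADAMTS14, from 3.51 and 3.8 CPM to 42.1 and 37.8 CPM; PCOLCE, a procollagen protease enhancer, and ADAMTS2 fell (-0.56 and -0.51). Mitochondrial ribosomal proteins had 48 of 81 tested genes higher and 1 lower, or 0 with any of the 4 libraries left out (median 0.34), while cytosolic ribosomal proteins had 17 of 78 higher and 7 lower (median 0.04). Both counts of the cytosolic set moved with the library left out, to between 8 and 16 higher and between 0 and 4 lower. Ribosomal RNA itself made up 0.663% and 0.803% of the raw, unscaled counts in untreated cells and 1.70% and 0.997% with VP64-MyoD.

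Cell cycle genes were higher in the same libraries in which muscle genes were higher. All 38 mitosis genes and all 35 DNA replication genes were tested and called higher, with median log2 fold changes of 1.84 and 1.50. HMMR, a spindle protein, stood at 1.13 and 1.51 CPM in untreated cells and 9.01 and 11.2 CPM with VP64-MyoD (log2 fold change 2.95 with an SE of 0.18, adjusted p = 8.5e-10 by edgeR). MKI67, the proliferation antigen, rose from 42.8 and 46.3 CPM to 142 and 144 CPM (log2 fold change 1.69 with an SE of 0.10), and CCNB1, a mitotic cyclin, from 6.54 and 6.59 CPM to 28.8 and 27.7 CPM (log2 fold change 2.10 with an SE of 0.10). GINS2, of the replication helicase, stood at 0.525 and 0.137 CPM in untreated cells and 9.4 and 9.84 CPM with VP64-MyoD (log2 fold change 4.80 with an SE of 0.27), and RRM2, of nucleotide synthesis, rose from 6.58 and 6.63 CPM to 29.7 and 30.7 CPM (log2 fold change 2.19 with an SE of 0.09). For all of these both VP64-MyoD libraries were above both untreated ones, with levels that were low to moderate in each group. The smallest changes were in MCM7 (0.38) and RRM1 (0.49). In the untreated cells these genes were not at 0, and the labels do not give their density or harvest day, so a difference in confluence cannot be told apart from an effect of VP64-MyoD.

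Inhibitors of the cell cycle did not follow 1 pattern. CDKN1C, which encodes the inhibitor p57, stood at 2.1 and 2.24 CPM in untreated cells and 149.8 and 134 CPM with VP64-MyoD (log2 fold change 6.03 with an SE of 0.10, adjusted p = 1.3e-16 by edgeR). CDKN1A, the inhibitor p21 that accompanies muscle differentiation, was not called, at 579 and 561 CPM in untreated cells and 638 and 575 CPM with VP64-MyoD (edgeR adjusted p = 0.27). CDKN1B fell (log2 fold change -0.52 with an SE of 0.08). The D-type cyclins CCND2 and CCND3 rose (2.31 and 1.04). Among p53 targets, 8 of 25 rose and 10 fell, near the 33.3% and 30.3% of all genes, with GADD45G from no count to 4.72 and 4.58 CPM at one end and XPC (-0.84) at the other.

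**Figure D3:**
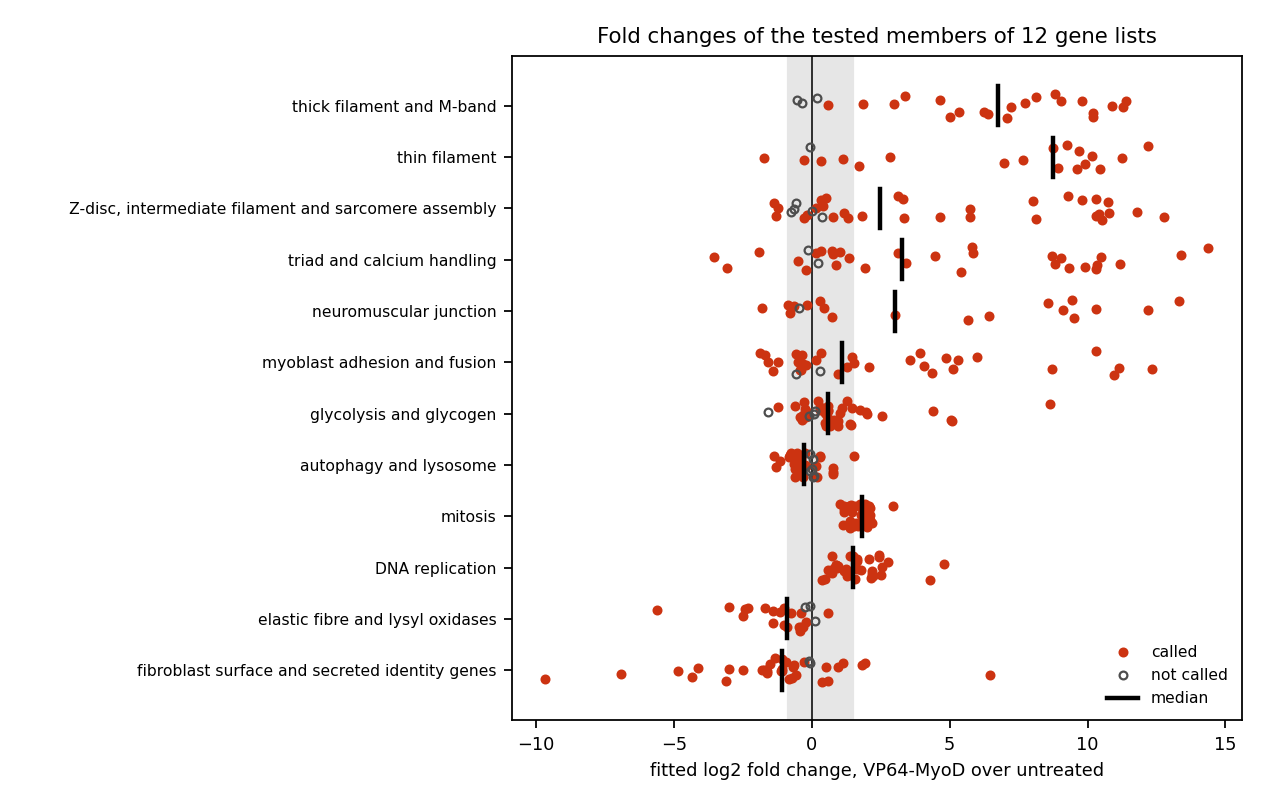
Fitted log2 fold changes of VP64-MyoD over untreated for each tested member of 12 gene lists, 1 point a gene, with the list median as a vertical bar. Values of genes without a count in untreated cells depend on the small prior count of the fit. Filled points were called and open points were not, and the grey band holds the middle 80% of all tested genes (-0.84 to 1.49). Muscle lists spread widely to the right, all mitosis and replication genes sit above 0, and elastic fibre and fibroblast identity genes extend to the left.

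Secreted inflammatory signals were lower more often than higher. 22 of 33 listed genes were tested, 7 rose, 14 fell and the median log2 fold change was -1.13. The shares over all tested genes were 33.3% higher and 30.3% lower. PTX3, a soluble pattern receptor, fell from 309.7 and 335 CPM to 14.5 and 14.9 CPM (log2 fold change -4.46 with an SE of 0.10, adjusted p = 3.4e-15 by edgeR), and C3, the central complement protein, from 30.7 and 32.6 CPM to 0.52 and 0.423 CPM (log2 fold change -6.07 with an SE of 0.17). CXCL12, the ligand of CXCR4, fell from 906 and 871 CPM to 412 and 409 CPM (log2 fold change -1.11 with an SE of 0.07). IL6 fell from 20.1 and 21.3 CPM to 3.46 and 3.31 CPM (log2 fold change -2.61 with an SE of 0.13), while LIF, of the same cytokine family, rose from 4.52 and 3.25 CPM to 16.6 and 17 CPM (log2 fold change 2.10 with an SE of 0.15). Ligand CXCL12 and receptor CXCR4 thus moved in opposite directions. PTGS2, the inducible prostaglandin synthase, rose from 4.64 and 4.85 CPM to 16 and 15.2 CPM.

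Interferon-induced genes were called higher more often than lower. 39 of 40 listed genes were tested, 21 rose, 9 fell and the median log2 fold change was 0.58. The shares over all tested genes were 33.3% higher and 30.3% lower. The summed share of scaled counts of this list did not rise, at 0.178% and 0.186% in untreated cells and 0.172% and 0.158% with VP64-MyoD. USP18, a brake on interferon signalling, rose from 3.31 and 3.52 CPM to 31.5 and 28.8 CPM (log2 fold change 3.14 with an SE of 0.10) and IFI6 from 3.47 and 2.97 CPM to 30.6 and 22.8 CPM (log2 fold change 3.04 with an SE of 0.14). IFIT2 fell from 33.9 and 34.9 CPM to 7.4 and 6.27 CPM (log2 fold change -2.33 with an SE of 0.09) and IFIT1 from 18.7 and 19.8 CPM to 10.3 and 6.15 CPM (log2 fold change -1.24 with an SE of 0.15). The signal transducer STAT2 fell (-0.96). In antigen presentation 7 genes rose and 7 fell of 19 tested, near the 33.3% and 30.3% of all genes, with PSME2, a proteasome activator, up (log2 fold change 1.13 with an SE of 0.10) and HLA-E down (log2 fold change -0.92 with an SE of 0.06). Without VP64-MyoD replicate 1, 4 antigen presentation genes were higher.

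Of the matrix lists, that of the elastic fibre had the largest share of its tested members lower. For elastic fibre genes and lysyl oxidases, all 23 listed genes were tested, 1 rose, 19 fell and the median log2 fold change was -0.91. Only LOXL3 rose (log2 fold change 0.59 with an SE of 0.07). ELN, elastin, fell from 1186 and 1188 CPM to 23.4 and 24.9 CPM (log2 fold change -5.62 with an SE of 0.08, adjusted p = 3.6e-17 by edgeR). EFEMP1 fell from 1379 and 1473 CPM to 178 and 181 CPM (log2 fold change -2.99 with an SE of 0.07), and FBLN1 from 876 and 859 CPM to 158 and 152 CPM (log2 fold change -2.48 with an SE of 0.07). FBN1, fibrillin of the microfibril, remained abundant at 4132 and 3870.3 CPM against 7634 and 8275 CPM (log2 fold change -0.99 with an SE of 0.10). The list took 2.26% and 2.33% of scaled counts in untreated cells and 1.07% and 1.03% with VP64-MyoD, without overlap. LOX itself, the crosslinking enzyme, moved little (log2 fold change -0.38 with an SE of 0.07).

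Proteoglycans and hyaluronan enzymes showed a few large opposite changes. 26 of 30 listed genes were tested, 6 rose, 15 fell and the median log2 fold change was -1.25. HAS2, the hyaluronan synthase, rose from 22.2 and 18.9 CPM to 239 and 247 CPM (log2 fold change 3.56 with an SE of 0.08, adjusted p = 4.1e-15 by edgeR), and CEMIP, a hyaluronan-degrading protein, fell from 1846 and 2025 CPM to 186 and 174 CPM (log2 fold change -3.43 with an SE of 0.09). CD44, the hyaluronan receptor, rose (log2 fold change 0.58 with an SE of 0.07). HAPLN1, which links hyaluronan to proteoglycans, fell from 90.8 and 83.8 CPM to 9.87 and 8.57 CPM, and DCN, decorin, from 947 and 1015 CPM to 374 and 382 CPM. VCAN, with the most counts of the list, was not called (2424 and 2498 CPM in untreated cells and 2471 and 2488 CPM with VP64-MyoD).

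Among matricellular proteins, COMP, a cartilage and tendon thrombospondin, fell from 820.3 and 860.5 CPM to 151 and 136 CPM (log2 fold change -2.55 with an SE of 0.08) and TNC, tenascin C, from 3139 and 3204 CPM to 1549 and 1471 CPM (log2 fold change -1.07 with an SE of 0.07). TNXB fell from 514 and 479.5 CPM to 7.88 and 8.77 CPM (log2 fold change -5.90 with an SE of 0.17), but it shares near-identical sequence with TNXA and is uncertain. POSTN and TGFBI rose from already high levels (log2 fold change 0.43 with an SE of 0.07 and log2 fold change 0.97 with an SE of 0.07). CCN5, a Wnt-induced matrix protein, fell from 21.9 and 22.9 CPM to 0.0866 and 0.308 CPM (log2 fold change -6.77 with an SE of 0.22). Of 24 tested, 6 rose and 15 fell.

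Matrix proteases and their inhibitors moved in both directions. PLAU, urokinase, stood at 30.3 and 29.5 CPM in untreated cells and 415 and 394 CPM with VP64-MyoD (log2 fold change 3.76 with an SE of 0.07, adjusted p = 4.7e-16 by edgeR), and its inhibitor SERPINE2 fell from 3796 and 4052 CPM to 745 and 764 CPM (log2 fold change -2.38 with an SE of 0.07). MMP1, the interstitial collagenase, stood at 26.4 and 21.7 CPM in untreated cells and 311 and 317 CPM with VP64-MyoD (log2 fold change 3.71 with an SE of 0.09). MMP2, the gelatinase that fibroblasts make most, fell from 3467 and 3639 CPM to 1316 and 1254 CPM (log2 fold change -1.47 with an SE of 0.08), and RECK, a membrane inhibitor of these enzymes, from 409 and 433 CPM to 114 and 117 CPM (log2 fold change -1.87 with an SE of 0.06). ADAM19 rose (log2 fold change 3.04 with an SE of 0.08) and ADAM12 fell (log2 fold change -0.80 with an SE of 0.07). The counts were level, with 11 of 24 higher and 11 lower, against 33.3% higher and 30.3% lower over all genes.

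Collagen genes were called in both directions, near the shares of all tested genes (33.3% higher and 30.3% lower), with 14 of 35 tested higher and 14 lower. Their summed share of scaled counts was 7.39% and 7.69% in untreated cells and 5.53% and 5.25% with VP64-MyoD. COL19A1 rose from no count to 10.3 and 9.04 CPM, at least 150.0-fold higher, and COL22A1, a collagen of muscle-tendon junctions, to 0.823 and 0.692 CPM. COL8A2 fell from 83 and 75.1 CPM to 11.3 and 10.3 CPM (log2 fold change -2.87 with an SE of 0.08).

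Genes of fibroblast surface and identity fell in most cases. All 36 listed genes were tested, 8 rose, 26 fell and the median log2 fold change was -1.07. PI16, a marker of adventitial fibroblasts, fell from 625 and 583 CPM to 5.2 and 4.84 CPM (log2 fold change -6.91 with an SE of 0.10, adjusted p = 3.6e-17 by edgeR). DPT, dermatopontin, fell from 447 and 486 CPM to 14.7 and 17.2 CPM (log2 fold change -4.86 with an SE of 0.09), and SLIT3, a guidance protein, from 1423 and 1452 CPM to 84.6 and 79.2 CPM (log2 fold change -4.13 with an SE of 0.08). DPP4, a surface peptidase, fell from 373 and 414 CPM to 44.9 and 45.7 CPM (log2 fold change -3.12 with an SE of 0.07). For all 4 the highest VP64-MyoD library was far under the lowest untreated one. Against this trend S100A4 and PTGDS, which makes prostaglandin D, rose (1.93 and 6.47), and THY1 was not called. DHRS3 and ADH1B, enzymes of retinoid metabolism, fell from 85.5 and 83.2 CPM and 5.25 and 6.27 CPM to 1.26 and 1.85 CPM and 0 and 0.0385 CPM, the last resting on 1 fragment. MGP, a matrix inhibitor of calcification, went from 2.54 and 1.65 CPM to no count, at least 34.3-fold lower.

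Growth factor genes included several with large decreases. In the insulin-like growth factor list, 12 of 18 tested genes fell and 3 rose. IGF2 stood at 0.0404 and 0.183 CPM in untreated cells and 3.07 and 3.15 CPM with VP64-MyoD (log2 fold change 4.82 with an SE of 0.41), while the binding proteins IGFBP6 and IGFBP4 fell from 179 and 156 CPM and 743 and 750.0 CPM to 40.9 and 35.8 CPM and 216 and 216 CPM. IRS2, an insulin receptor adaptor, fell from 266 and 267 CPM to 39.7 and 39.6 CPM (log2 fold change -2.75 with an SE of 0.08, adjusted p = 7e-14 by edgeR). Of the FGF list, FGFR4, the receptor of muscle precursors, rose to 37.3 and 37.3 CPM from 2 fragments, FGFR1 fell (log2 fold change -1.01 with an SE of 0.06), and FGF7, a signal of fibroblasts to epithelium, fell from 268 and 306 CPM to 27.7 and 30.3 CPM (log2 fold change -3.31 with an SE of 0.08). FGF9 fell from 25.8 and 27.3 CPM to 0.736 and 0.731 CPM (log2 fold change -5.17 with an SE of 0.15), and the feedback inhibitors SPRY2 and DUSP6 rose (2.16 and 1.22).

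In the TGF-beta, activin and BMP list, 24 of 44 fell and 12 rose, against 30.3% lower and 33.3% higher over all genes. MSTN, the muscle hormone that limits muscle mass, stood at 2.66 and 2.97 CPM in untreated cells and 86.8 and 88 CPM with VP64-MyoD (log2 fold change 4.96 with an SE of 0.10, adjusted p = 1.1e-15 by edgeR). NOG and CHRD, antagonists of BMP, stood at 0.323 and 0.32 CPM in untreated cells and 14.9 and 14.2 CPM with VP64-MyoD and at 1.61 and 1.418 CPM in untreated cells and 44.2 and 41.8 CPM with VP64-MyoD (log2 fold change 5.49 with an SE of 0.17 and log2 fold change 4.82 with an SE of 0.12). SMAD6 and BAMBI, feedback inhibitors of the pathway, fell (log2 fold change -2.39 with an SE of 0.21 and log2 fold change -2.28 with an SE of 0.20), as did BMP6 (log2 fold change -2.89 with an SE of 0.17). TGFB2 rose from 3.43 and 4.07 CPM to 49.8 and 50.9 CPM (log2 fold change 3.75 with an SE of 0.10), and the coreceptor TGFBR3 fell from 78.4 and 80.2 CPM to 14.2 and 16 CPM (log2 fold change -2.39 with an SE of 0.07).

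Notch genes were mostly higher. 20 of 25 listed genes were tested, 12 rose, 5 fell and the median log2 fold change was 1.13. HEYL, a Notch target, stood at 0.444 and 0.274 CPM in untreated cells and 179 and 177 CPM with VP64-MyoD (log2 fold change 8.92 with an SE of 0.12, adjusted p = 3.5e-17 by edgeR). The ligands JAG2 and DLL1 stood at 0.727 and 0.64 CPM in untreated cells and 49.3 and 43 CPM with VP64-MyoD and at 0.565 and 0.549 CPM in untreated cells and 37.9 and 33.8 CPM with VP64-MyoD (log2 fold change 6.07 with an SE of 0.14 and log2 fold change 6.00 with an SE of 0.14). NOTCH3 rose from 212 and 203 CPM to 798 and 799 CPM (log2 fold change 1.94 with an SE of 0.09), while NOTCH2 fell (log2 fold change -0.71 with an SE of 0.09). NOTCH3 is also a pericyte marker and made up most of that marker sum, which was 246 and 237 CPM in untreated cells and 807 and 808 CPM with VP64-MyoD. RGS5 and CNN1 of the same marker list fell and MYH11 was not called. The part of such cells in the Notch result was not tested.

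In both the Wnt and the Hippo list, more genes fell than rose. In the Wnt list, 15 of 35 fell and 10 rose, against 30.3% lower and 33.3% higher over all genes. SFRP1, a secreted antagonist, fell from 38.6 and 38.7 CPM to 3.94 and 2.92 CPM (log2 fold change -3.50 with an SE of 0.11), and WNT4 from 7.43 and 6.31 CPM to 1.08 and 0.538 CPM (log2 fold change -3.10 with an SE of 0.24). WNT9A rose (log2 fold change 2.95 with an SE of 0.27). RSPO1, a Wnt agonist, fell from 1.61 and 1.78 CPM to 0 and 0.0385 CPM, the last resting on 1 fragment. Of the YAP and Hippo list 8 of 13 fell and 2 rose. The summed share of scaled counts of that list was 0.205% and 0.206% in untreated cells and 0.21% and 0.206% with VP64-MyoD. WWTR1, the gene of TAZ, rose from 229 and 238 CPM to 559.8 and 540.2 CPM (log2 fold change 1.24 with an SE of 0.06).

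Guidance genes shared by nerve and mesenchyme fell in 20 of 37 and rose in 9. SEMA6B, a transmembrane semaphorin, stood at 0.363 and 0.595 CPM in untreated cells and 214 and 198 CPM with VP64-MyoD (log2 fold change 8.76 with an SE of 0.14, adjusted p = 6.6e-17 by edgeR). The secreted or surface semaphorins SEMA5A and SEMA3C fell from 720.0 and 741 CPM and 937 and 1005 CPM to 115 and 121 CPM and 215 and 222 CPM (log2 fold change -2.63 with an SE of 0.12 and log2 fold change -2.15 with an SE of 0.07).

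Gene families defined by symbol gave further contrasts. Tubulins had 14 of 19 tested genes higher and 0 lower (median 1.02), and kinesins 24 of 35 higher and 7 lower. KIF1A, a neuronal transport motor, rested on 1 fragment in untreated cells and stood at 6.06 and 5.31 CPM, while the ciliary kinesins KIF7 and KIF27 fell (-1.20 and -1.20). Clustered protocadherins had 23 of 45 tested genes lower and 1 higher (0 without untreated replicate 2 or VP64-MyoD replicate 1; median -0.54), with PCDHGA4 down from 54.9 and 46 CPM to 23.6 and 22.9 CPM; their transcripts share exons, so single members are uncertain. HOX genes, which hold positional identity, had 16 of 32 lower and 5 higher, or 2 to 4 higher with 1 library left out. HOXA11 fell from 17.3 and 14.7 CPM to 6.28 and 6.38 CPM (log2 fold change -1.34 with an SE of 0.11) and HOXB2 rose from 7.02 and 7.32 CPM to 15.3 and 14.4 CPM (log2 fold change 1.05 with an SE of 0.11). Zinc finger genes of the ZNF series had 172 of 509 lower and 54 higher. Against a background of 30.3% lower over all genes, the ZNF share was close to it, and the protocadherin and HOX shares were above it. All 3 families had fewer members higher than the 33.3% of all genes. For the 9 lists and families in which edgeR called no gene lower, the count at an unadjusted p under 0.05 was also 0, as were the counts by DESeq2 and by limma-voom. Without untreated replicate 2, 1 thick filament gene was called lower.

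**Figure D4:**
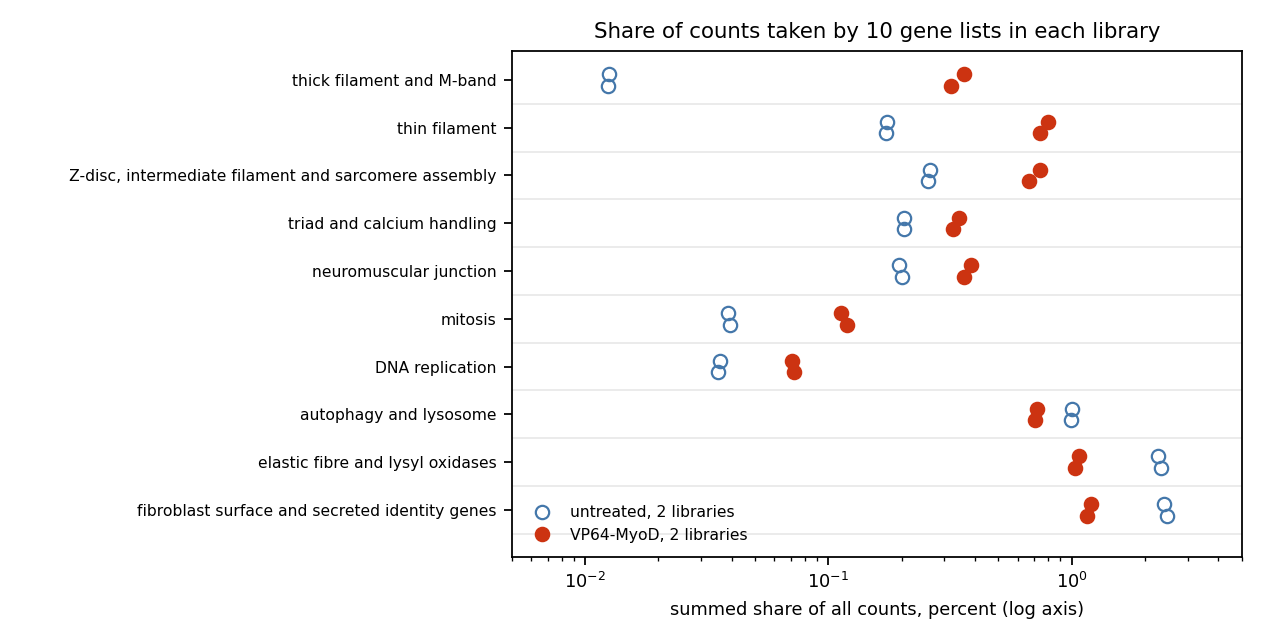
Summed share of scaled counts (TMM-scaled CPM written in percent) taken by the genes of 10 lists in each of the 4 libraries, on a log axis. Open circles are the untreated and filled circles the VP64-MyoD libraries. The filament, Z-disc, junction and triad lists lie to the right with VP64-MyoD, whereas the elastic fibre and fibroblast identity lists lie to the left.

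Genes known from other lineages were mostly low in both groups, with some exceptions. Of 37 neuronal genes, 21 were tested, 16 rose and 3 fell, and 9 were higher without VP64-MyoD replicate 2. STMN2, a neuronal tubulin regulator, stood at 3.55 and 3.89 CPM in untreated cells and 66.9 and 60.4 CPM with VP64-MyoD (log2 fold change 4.10 with an SE of 0.10, adjusted p = 8.5e-15 by edgeR), and L1CAM, an adhesion molecule of neurons, at 0.283 and 0.0457 CPM in untreated cells and 23.1 and 21.3 CPM with VP64-MyoD (log2 fold change 6.997 with an SE of 0.23). SYT1, a synaptic calcium sensor, had 1 fragment in untreated cells and reached 7.58 and 7.42 CPM. The proneural factors NEUROD1 and NEUROG2 did not pass the filter. Other neuronal factors were called higher, namely MYT1L of this list and NEUROD2, the latter resting on 1 fragment in untreated cells. Of 20 listed cartilage, tendon and bone genes, 9 were tested, 4 rose and 3 fell. For these and the neuronal genes, the shares over all tested genes were 33.3% higher and 30.3% lower. Among those that rose, ALPL, alkaline phosphatase, stood at 0.646 and 1.05 CPM in untreated cells and 30.8 and 31 CPM with VP64-MyoD (log2 fold change 5.20 with an SE of 0.15). COL10A1 stood at 2.18 and 2.06 CPM in untreated cells and 39.9 and 39.2 CPM with VP64-MyoD (log2 fold change 4.22 with an SE of 0.11). Of 11 listed cardiac genes 4 were tested. POPDC2 rose over 4-fold, and 2 fell, namely PLN and HAND2 (the latter with a log2 fold change of -0.85 and an SE of 0.14). CEBPA, an adipocyte factor, rose from 3 fragments to 3.46 and 3.69 CPM, while PPARG fell from 3.03 and 3.52 CPM to 1.13 and 1.15 CPM (log2 fold change -1.52 with an SE of 0.25).

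A contrast of VP64-MyoD and WT-MyoD in the same fit places some of these genes beside the unfused factor. Over all tested genes, 28.7% were called higher and 28.4% lower with the fusion than with WT-MyoD. Transgene RNA was lower with VP64-MyoD, at 116 and 97.2 CPM against 762 and 1022 CPM (log2 fold change -3.06 with an SE of 0.24, adjusted p = 3.6e-08 by edgeR), so the fusion and the amount of transgene cannot be told apart. RBFOX1 stood at 33.7 and 34.2 CPM with VP64-MyoD and 0.355 and 0.343 CPM with WT-MyoD (log2 fold change 6.59 with an SE of 0.15, adjusted p = 1.5e-13 by edgeR). MYL11, a fast myosin light chain, stood at 295 and 269.7 CPM and 7.92 and 6.12 CPM (log2 fold change 5.31 with an SE of 0.10, adjusted p = 6e-15 by edgeR), and CDKN1C at 149.8 and 134 CPM and 6.04 and 5.58 CPM (log2 fold change 4.61 with an SE of 0.09, adjusted p = 6e-15 by edgeR). In these 3 genes both VP64-MyoD libraries were the higher ones. Other muscle genes were lower with the fusion: KCNN3 stood at 53.7 and 50.5 CPM against 146 and 170.4 CPM (log2 fold change -1.60 with an SE of 0.08, adjusted p = 2.3e-10 by edgeR), SGCA at 51.7 and 47.5 CPM against 83.7 and 82.3 CPM (log2 fold change -0.74 with an SE of 0.07, adjusted p = 2.2e-07 by edgeR) and DAG1, dystroglycan, at 363 and 362 CPM against 939.8 and 1182 CPM (log2 fold change -1.55 with an SE of 0.09, adjusted p = 1e-09 by edgeR). SCN4A, at 31.7 and 30.3 CPM against 32.6 and 35.7 CPM, was not called in this comparison (log2 fold change -0.14 with an SE of 0.09, adjusted p = 0.17 by edgeR). By list, thick filament genes took 0.361% and 0.321% of scaled counts with VP64-MyoD against 0.0530% and 0.0627% with WT-MyoD. Thin filament genes took 0.803% and 0.743% against 0.286% and 0.288%. The Z-disc, triad and junction sums were also higher in both VP64-MyoD libraries. The sums of the dystrophin and basement membrane list and of the excitability list were lower in both, and that of the adhesion and fusion list overlapped.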

How the data were processed

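RNA of 6 fibroblast libraries was sequenced after a transposase-based library preparation, which does not mark strand. The authors deposited raw read counts per RefSeq transcript. CASAVA, Bowtie 0.12.9, DESeq 1.10.1 and the build hg19 are named in the submitters' processing notes, and the counting step is not given in the sources used here. Of 40710 transcript rows, 39324 were matched to a symbol through RefSeq, 517 through GENCODE names, and 868 to none (0.6011% to 0.744% of the counts of a library), and 1 was the mouse transgene. Matched rows were summed per gene. Every deposited count was even, so 2 counts were taken as 1 fragment. The authors' deposited table of their own comparisons was not used. Some results are not reported here.

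Counts were tested with edgeR 4.0.16 (R 4.3.3, quasi-likelihood, TMM scaling) over all 6 libraries, which left 3 residual degrees of freedom. Genes passed with at least 10 counts in 2 libraries, adjusted for library size, and 15 in total. P-values were adjusted by Benjamini-Hochberg over all 15282 genes, a gene being called under 0.05. Levels are TMM-scaled CPM of each library (counts per 1000000). SE is that of the log2 fold change, from the fit. Intervals and floors cover counting error only. In a test on simulated data for VP64-MyoD against untreated over 15282 genes, the fit recovered 81 of 100 genes changed 2-fold and 94 of 100 changed 4-fold, with 10 false calls. Only 200 genes were changed there, and every gene was given the same spread beyond counting error. In the real comparison most genes were called, so these rates do not carry over to it. DESeq2 1.42.0 and limma-voom (limma 3.58.1) were alternatives, as were other scaling, other filters, halved counts, 4 libraries alone, left-out libraries and a replicate block.

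The gene lists and the members described were chosen with earlier results of these data known, and some lists follow what those results showed. The text could name the called genes with the 20 largest increases and the 20 largest decreases, given at least 20 counts on average where they were higher and libraries that did not overlap. In each list it could name up to 6 called members at either end, the 2 with the highest mean CPM and those that no library detected. In each symbol family it could name 2 at either end, and in each group the 10 genes with the most counts. Outside this rule, and chosen after their values were seen, were ACBD7, ACTA1, ACTC1, ACTN3, ATP2A1, CACNA1S, CD68, CHRNE, DAG1, DCN, DUSP6, FBXO32, HSPB3, HSPB8, IL6, ITGA7, KCNN3, KRT10, LAMA2, LMOD3, LOX, MCM7, MEF2C, MYH11, MYH2, MYH7, MYOT, NCAM1, NDUFA6, NEUROD2, PAX3, PDGFRB, RGS5, RN7SK, RNA18SN5, RRM2, SGCB, STAC3, TCAP, THY1, TMEM38B and TNNI1.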

Additional observations from a re-analysis of the deposited data

How the results depend on the processing

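No count of called genes moved by over 1.5 times from 5090 higher and 4633 lower genes, or from 1199 and 288 over 4-fold, under the 12 alternatives. The lowest counts outside left-out libraries were 4666 and 4362, by DESeq2. With at least 1 CPM in 2 libraries, 888 and 215 genes passed 4-fold. When a library was left out, the lone sample of its group was assumed to vary like the others, and the counts were 4283 to 4466 higher and 3881 to 3963 lower. Of 678 named genes called by the rule, 634 to 677 were called in the same direction. Of 92 lists and families, 51 had more members higher than lower, and 49 to 52 did under the alternatives. No gene named with values in the text reversed. ACTA2, AGRN, ATP2A2 and PAX3 lost their call with libraries left out. Halving the counts, an alternative added after seeing that all were even, gave 4991 higher and 4577 lower.

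Replicates share a number in the labels, but samples with the same number did not deviate together (correlations 0.0281, 0.0201 and 0.0045 across genes). A fit with the replicate block called 5065 higher and 4615 lower, and 1202 and 286 over 4-fold. With 2 libraries a group, an exact permutation test of 1 gene could not pass the threshold, so every call rests on the spread pooled across genes. Genes at or under 3 fragments in a group have no reliable fold change.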
